A study of Mus musculus with 8 samples.

Results

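Fzd5, Fzd7, Wnt6 and Wnt10a were the Frizzled receptor and Wnt ligand genes followed here, 4 of the 779 genes with a complete row in a single-cell count table of mouse stomach gland cells. They were taken by name and not by their level, though with earlier results of these data known. They were followed over the 1388 of 1460 cell barcodes that held 100 or more unique molecular identifiers (UMIs, tags that each mark 1 captured RNA molecule). All cells came from 23-week-old mice carrying Atp4bCre and Rosa26NICD together with Arid1a flox/flox, the only genotype in the series. The Atp4b promoter, active in acid-secreting parietal cells, drives Cre, which deletes the floxed part of the chromatin remodelling gene Arid1a and turns on the Notch intracellular domain from Rosa26, so every cell compared below comes from animals with both changes. Gland cells with high staining for the epithelial protein EPCAM and low Sytox Blue staining (a dye taken up by dying cells) were sorted for droplet sequencing. The labels list 8 samples without saying whether they were separate animals, and the barcodes carry no sample mark. The table was therefore treated as 1 sample with no replicates, no p-value was computed, and every interval is a 95% interval for counting error only.

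Wnt ligands are secreted, lipid-modified glycoproteins that bind the cysteine-rich domain of Frizzled receptors on nearby cells. Frizzleds cross the membrane repeatedly and, with the co-receptors Lrp5 and Lrp6, stop the destruction of β-catenin, which then works with Tcf and Lef factors in the nucleus. In the intestine and the stomach this pathway is known for keeping stem and progenitor cells. Fzd5 is known as a Wnt receptor of gut epithelium, and Fzd7 is known as a receptor of intestinal stem cells that is also used in the gastric epithelium. Wnt6 and Wnt10a are canonical ligands that lie next to each other in the mouse genome.

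All 4 genes lie on mouse chromosome 1 (GRCm38, with GENCODE vM21 gene models). Fzd5 spans bases 64730558 to 64737751 on the minus strand in 2 exons, of which 64730558 to 64736853 is the longer. Fzd7 spans 59482424 to 59486955 on the plus strand in a single exon. Wnt6 spans 74771892 to 74785322 and Wnt10a spans 74791516 to 74804179, both on the plus strand, 6193 bases apart. Gm38058 overlaps Fzd5 and Gm29539 overlaps Wnt6 on the opposite strand. Neither has a row in the table, so whether their reads were kept apart from those of Fzd5 and Wnt6 cannot be checked here.

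The start regions of the receptors and of Wnt6 are shown as the stretches where transcription of the measured genes begins, 300 bases each from 250 before to 50 after the RefSeq start of the gene (GRCm38.p6), written 5′ to 3′ on the strand of the gene. They are Fzd5 at chr1:64737701-64738000 (minus strand), Fzd7 at chr1:59481897-59482196 (plus strand, around a start upstream of the GENCODE one) and Wnt6 at chr1:74771642-74771941 (plus strand). Capitals mark GGGCGG, the core of the GC box, or its reverse complement CCGCCC, found by exact match with overlaps counted.
Fzd5: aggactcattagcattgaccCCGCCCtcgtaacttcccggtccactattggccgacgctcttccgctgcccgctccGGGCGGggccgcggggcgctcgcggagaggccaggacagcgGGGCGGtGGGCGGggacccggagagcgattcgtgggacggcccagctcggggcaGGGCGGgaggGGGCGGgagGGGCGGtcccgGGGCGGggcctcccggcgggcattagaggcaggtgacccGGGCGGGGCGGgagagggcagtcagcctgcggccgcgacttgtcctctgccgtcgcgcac
Fzd7: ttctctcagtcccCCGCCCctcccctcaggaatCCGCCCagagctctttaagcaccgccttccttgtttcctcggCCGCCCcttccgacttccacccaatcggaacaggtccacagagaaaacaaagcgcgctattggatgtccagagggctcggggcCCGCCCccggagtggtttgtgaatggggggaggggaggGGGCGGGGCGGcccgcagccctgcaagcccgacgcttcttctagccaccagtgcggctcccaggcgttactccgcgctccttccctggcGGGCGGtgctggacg
Wnt6: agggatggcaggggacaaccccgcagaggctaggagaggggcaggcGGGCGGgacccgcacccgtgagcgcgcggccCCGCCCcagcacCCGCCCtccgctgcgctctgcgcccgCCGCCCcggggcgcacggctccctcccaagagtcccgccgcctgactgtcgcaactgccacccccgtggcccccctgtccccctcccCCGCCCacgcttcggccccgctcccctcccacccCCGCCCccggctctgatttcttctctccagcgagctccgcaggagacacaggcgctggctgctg
The Fzd5 window held 10 matches, 38 CG pairs and 75.7% G or C. The Fzd7 window held 7 matches, 24 CG pairs and 66.7% G or C, and the Wnt6 window held 6 matches, 31 CG pairs and 76.7% G or C. Over 32851 mouse start regions of the same length, 35.7% held at least 1 match, the median window had 7 CG pairs and the median G or C content was 52.7%. TATAAA and CTTTGAT, also searched on both strands, were in none of the 3 windows, against 13.6% and 3.73% of all windows. These matches describe the letters of the windows and no binding was measured.

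The table held 439743 UMIs in the kept barcodes, between 100 and 1082 in each, with median totals of 286 UMIs from 72 genes. It covers part of the transcriptome: 711 of the 779 gene names match GENCODE genes on chromosome 1, and 49.7% of the UMIs belonged to Rpl7, Rpl31, Rpl37a and Ptma. A level in CPM below, a UMI number scaled to 1e+06 UMIs of the table, is therefore relative to these genes and not to the whole cell. None of the listed markers of parietal, chief and neck, pit or gastric progenitor cells has a row, so the labelled tissue could not be checked on them and those genes were not analysed here. Of the epithelial and intestinal markers, Vil1, the villin gene of microvilli, was measured and is described below. No barcode appeared more than once, and doublets were neither called nor removed.

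The receptors were measured far more often than the ligands. Fzd5 had 387 UMIs, a level of 880 CPM (795 to 972), and was detected in 275 barcodes, or 19.8% (17.7 to 22.0%, Clopper-Pearson interval). Fzd7 had 42 UMIs, a level of 95.5 CPM (68.8 to 129), in 40 barcodes, or 2.88% (2.07 to 3.90%). By UMI number Fzd5 ranked 118 and Fzd7 ranked 248 among the 418 genes with any UMI. The intervals of the 2 receptors did not overlap.

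Of the ligands, Wnt10a had 13 UMIs, a level of 29.6 CPM (15.7 to 50.6), in 4 barcodes, or 0.288% (0.0786 to 0.736%). Wnt6 had 1 UMI, a level of 2.27 CPM (0.0576 to 12.7), in 1 barcode. Divided by exon length, the order of the levels stayed Fzd5, Fzd7, Wnt10a, Wnt6. A UMI marks 1 captured molecule whatever its length, so this scale is a description and not a corrected level. On this scale Fzd5 had 56.0 UMIs per kb of exon (50.5 to 61.8), Fzd7 had 9.27 (6.68 to 12.5), Wnt10a had 5.27 (2.80 to 9.01) and Wnt6 had 0.456 (0.0116 to 2.54). Fzd7 and Wnt10a, neighbours in this order, had overlapping intervals on the length scale, and the other neighbours did not. In CPM the intervals of Fzd7 and Wnt10a did not overlap.

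**Figure D1:**
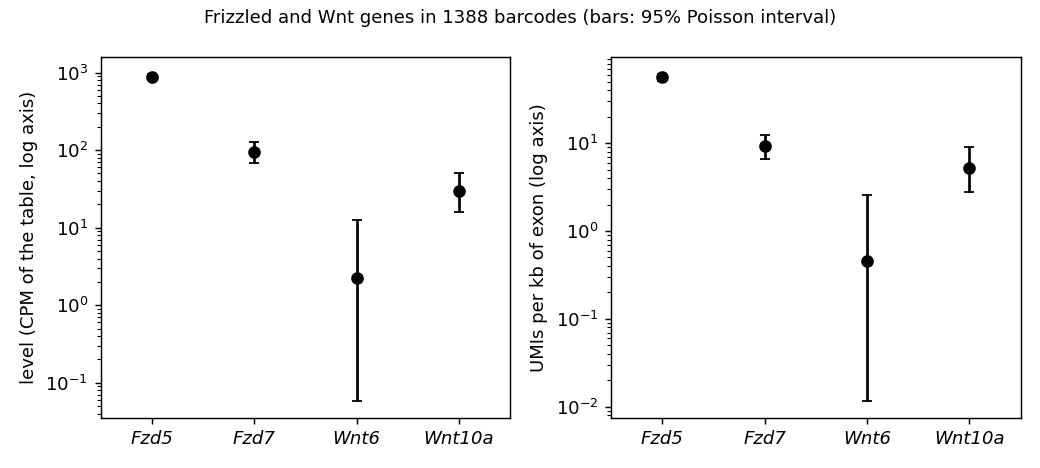
Level of Fzd5, Fzd7, Wnt6 and Wnt10a over 1388 barcodes, in CPM of the table (left) and in UMIs per kb of exon (right), both on log axes, with 95% Poisson intervals as bars. Fzd5 stands highest at 880 CPM and 56.0 UMIs per kb, and the intervals of Fzd7 and Wnt10a overlap on the length scale only. UMIs count molecules whatever their length, so the length scale is a description only.

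Wnt10a was concentrated in a few barcodes. A barcode of 217 UMIs held 7 Wnt10a UMIs together with 5 of Arl4c, the gene of a small Arf-like GTPase. A barcode of 157 UMIs held 4 Wnt10a UMIs, the single Wnt6 UMI, 2 Arl4c UMIs and 9 of the 149 UMIs of Igfbp5, a secreted IGF binding protein gene. No other barcode held as many Igfbp5 UMIs. The remaining barcodes with Wnt10a, of 159 and 443 UMIs, held 1 Wnt10a UMI each, and the first of them also held 1 Fzd5 UMI. None of the 4 held a Fzd7 UMI. Thus 11 of 13 Wnt10a UMIs lay in 2 barcodes, the variance over the mean of its counts was 5.15, and the ligand level rests on these cells.

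Fzd5 was spread over many barcodes but less evenly than depth alone would give. It had 0 UMIs in 1113 barcodes, 1 in 197, 2 in 52, 3 in 20, 4 in 5 and 6 in 1 barcode. Had the same UMIs been spread in proportion to the total of each barcode, 1059 barcodes would hold 0, 278 would hold 1, 44.5 would hold 2 and 5.61 would hold 3. Barcodes with 2 or more Fzd5 UMIs numbered 78 against 50.7 for that even spread, and those with 3 or more numbered 26 against 6.29. The variance over the mean was 1.53 for Fzd5 and 1.07 for Fzd7, whose 2 barcodes with 2 UMIs stand against 0.751 for an even spread.

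**Figure D2:**
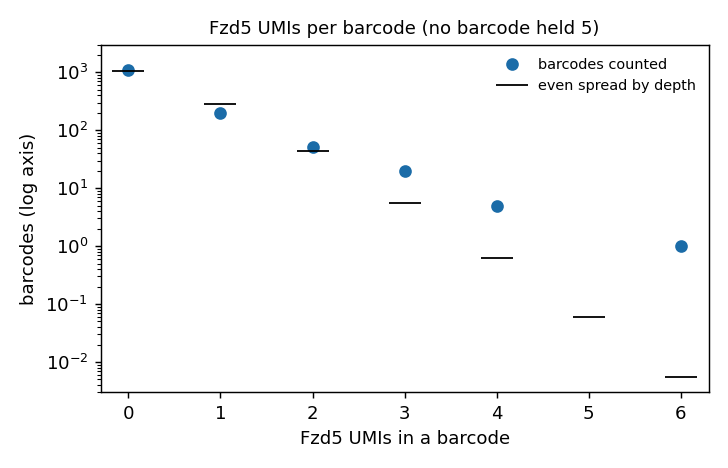
Number of barcodes (log axis) by Fzd5 UMIs in the barcode, as counted (points) and as an even spread in proportion to depth gives (lines). Counted barcodes lie above the line from 2 UMIs upward, except at 5 UMIs, which no barcode held.

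Fzd5 was higher in the deepest barcodes than in the middle bin. Its level was 790 CPM (567 to 1072) in the 331 barcodes of 100 to 200 UMIs, 743 CPM (631 to 870) in the 715 barcodes of 200 to 400 UMIs and 1065 CPM (919 to 1227) in the 342 barcodes of 400 UMIs or more. The ratio of the deepest to the middle bin was 1.43 (1.15 to 1.78), that of the deepest to the lowest was 1.35 (0.958 to 1.94), and that of the middle to the lowest was 0.941 (0.663 to 1.36). The last 2 intervals include 1. The share of barcodes with Fzd5 was 9.06%, 17.3% and 35.4% from the lowest to the deepest bin, where an even spread gives 12.9%, 22.5% and 36.7%. After every barcode was thinned to 100 UMIs the shares were 6.65%, 7.13% and 10.5%.

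The level of Fzd7 was lowest in the deepest barcodes. It was 96.4 CPM (31.3 to 225) in the lowest bin, 144 CPM (97.1 to 205) in the middle bin and 39.0 CPM (15.7 to 80.4) in the deepest bin, from 5, 30 and 7 UMIs. The ratio of the deepest to the middle bin was 0.271 (0.101 to 0.630). Against the lowest bin it was 0.405 (0.111 to 1.62), an interval that includes 1. Fewer cells with a gene and less of its RNA per cell cannot be told apart from these bin levels.

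**Figure D3:**
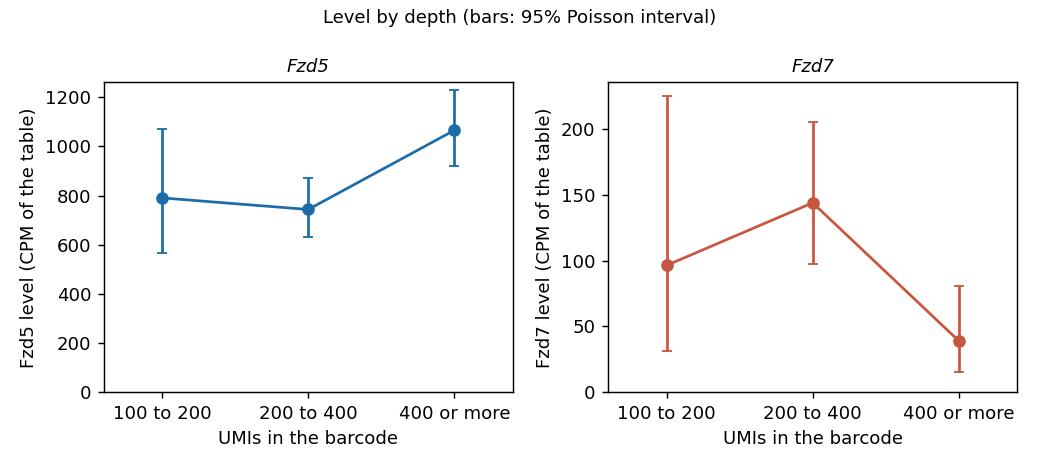
Level of Fzd5 (left) and Fzd7 (right) in CPM of the table by the UMI total of the barcode, with 95% Poisson intervals as bars. Fzd5 is at 1065 CPM in the deepest bin against 743 CPM in the middle one, and Fzd7 is at 39.0 CPM against 144 CPM.

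Free RNA in droplets can give a UMI to a cell that does not express a gene, and no cell type known to lack Fzd5 could be identified in these barcodes to measure that background. The nearest values are those of the 72 barcodes under 100 UMIs, with a median of 71.5 UMIs, of which 6 held 1 Fzd5 UMI each. That is 8.33% (3.12 to 17.3%) and 1190 CPM (437 to 2590), an interval that covers the 880 CPM of the kept barcodes, whose median depth was 286 UMIs. A Fzd5 UMI is therefore read below only as detection of its RNA in the barcode, whether from the cell or free. Its absence can be no capture or no expression, which cannot be told apart here.

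The 275 barcodes with a Fzd5 UMI were compared with the 1113 without one. Those with Fzd5 were deeper, at a median of 382 UMIs (84 genes detected) against 272 UMIs (69 genes detected). The comparison was made within the 3 depth bins, and the bins were joined as a Mantel-Haenszel ratio of levels, with over without Fzd5, after Fzd5 UMIs were taken out of every total. The bins held 30, 124 and 121 barcodes with Fzd5 and 301, 591 and 221 without it, from low to high depth. Within bins the barcodes with Fzd5 were still slightly deeper, at medians of 163.5 against 158, 308.5 against 280 and 518 against 483 UMIs. The 4 most abundant genes took 49.3% of UMIs with Fzd5 and 49.8% without.

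Most ratios lay near 1. Of 215 genes with 20 or more UMIs expected in the barcodes with Fzd5, 174 had ratios within 1.25 times of 1, the median ratio was 1.02 and the 5th to 95th percentile ran from 0.749 to 1.39. A gene was counted as past the fold at 1.5 times or more in either direction, which held for 8 genes or 3.72%. Of these, 4 genes or 1.86% were higher with Fzd5 (Prim2, Slc23a3, Irs1 and Gtf3c3) and 4 genes or 1.86% were lower (Arl4c, Tm4sf20, Mettl21a and Rnf149). Without the 3 barcodes richest in each gene, the log2 ratios of Gtf3c3 (0.40) and Rnf149 (-0.55) no longer passed the fold, and without the 5% deepest barcodes that of Tm4sf20 (-0.39) did not. The ratio pointed the same way in each bin with enough UMIs in 83 of the 215 genes.

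Among the 215 genes compared, Arl4c had the ratio farthest from 1. Its protein is a GTPase of membrane traffic and the cytoskeleton, and the gene is known from cultured rat intestinal epithelial cells to be induced by Wnt together with growth factor signals. Arl4c had 144 UMIs, 1307 CPM, in barcodes with Fzd5 and 914 UMIs, 2776 CPM, in barcodes without. The depth-binned ratio was 0.503 (0.420 to 0.603), and the bins gave 0.686, 0.427 and 0.550 from low to high depth. In barcodes with 2 or more Fzd5 UMIs the level was 813 CPM and with 1 Fzd5 UMI it was 1544 CPM, ratios to barcodes with 0 of 0.32 (0.22 to 0.47) and 0.59 (0.48 to 0.71). The intervals of these 2 ratios did not overlap, but both ratios share the barcodes with 0 Fzd5 UMIs. The intervals also treat UMIs as independent, so a difference between the 2 ratios was not tested. Some Arl4c UMIs lay in few cells, with 49 of 1058 in 3 barcodes.

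Itm2c, which encodes a transmembrane protein of the BRICHOS family, had 260 UMIs with Fzd5 and 1441 without, a ratio of 0.683 (0.597 to 0.781). It too had the lower ratio at 2 or more Fzd5 UMIs, 0.55 against 0.73 at 1 UMI. Mettl21a, a lysine methyltransferase of Hsp70 proteins, had a ratio of 0.582 (0.411 to 0.824) that came from the 2 deeper bins (0.578 and 0.484). Rnf149, a ubiquitin ligase, stood at 0.655 (0.432 to 0.995), and Orc2, a subunit of the origin recognition complex, at 0.677 (0.473 to 0.969). The other lowest genes were Gm8420 at 0.701, Ptprn at 0.705, Pecr at 0.729, Lancl1 at 0.733 and Kansl1l at 0.749. Of those 5, Gm8420 (0.514 to 0.956) and Pecr (0.554 to 0.959), an enzyme of peroxisomal fatty acid synthesis, had intervals that left out 1.

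On the higher side, Ihh combined many UMIs with a narrow interval. It encodes Indian hedgehog, a secreted signal from gut epithelium to the mesenchyme. Ihh had 176 UMIs with Fzd5 and 385 without, a ratio of 1.42 (1.19 to 1.71), just under the fold used here, and the bins gave 2.54, 1.47 and 1.27 from low to high depth. Read the other way, in the 366 barcodes with an Ihh UMI, 28.7% held Fzd5. These barcodes were deeper, at a median of 339 UMIs against 272. The depth-binned level of Fzd5 in them was 1.59 times that of barcodes without Ihh (1.29 to 1.95). At 2 or more and at 1 Fzd5 UMI the ratios of Ihh were alike, 1.48 and 1.39.

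The highest ratios came from genes with fewer UMIs. Prim2, the large subunit of DNA primase, had 43 UMIs with Fzd5 and 58 without, a ratio of 1.73 (1.15 to 2.60). Slc23a3, of the ascorbate transporter family, had 42 and 64 UMIs, a ratio of 1.69 (1.13 to 2.54). Irs1, the insulin receptor substrate, had 45 and 100 UMIs, a ratio of 1.59 (1.10 to 2.302), and its log2 ratio was under the fold without depth bins (0.43) and at 2 or more Fzd5 UMIs (0.24). Gtf3c3, a subunit of the general factor TFIIIC of RNA polymerase III, stood at 1.51 (0.960 to 2.38), an interval that includes 1.

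The other genes among the 10 highest were Ankrd44 at 1.45, Ogfrl1 at 1.42, Bag2 at 1.41, Sgpp2 at 1.40 (1.11 to 1.77) and Atg9a at 1.38 (1.06 to 1.80). Sgpp2 encodes a phosphatase of sphingosine 1-phosphate and Atg9a a membrane protein of autophagy, and those 2 of the 5 had intervals above 1. With 2 or more Fzd5 UMIs the ratio to barcodes with 0 was 2.65 (1.59 to 4.40) for Slc23a3 and 1.04 (0.51 to 2.10) for Prim2, against 1.23 and 2.12 with 1 Fzd5 UMI. The ratio was thus higher at more Fzd5 UMIs for Slc23a3 and lower for Prim2, with overlapping intervals in both (0.73 to 2.05 and 1.37 to 3.27 with 1 UMI).

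**Figure D4:**
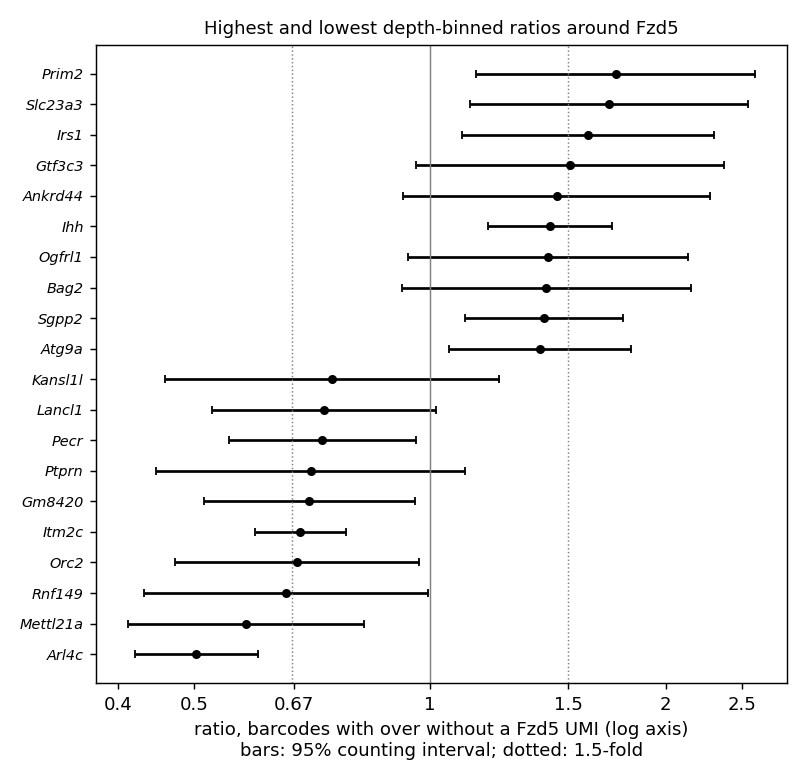
Depth-binned ratio of the level in barcodes with over barcodes without a Fzd5 UMI (log axis), with 95% counting intervals as bars and dotted lines at 1.5-fold. Shown are the 10 highest and the 10 lowest genes among those with the same direction in each bin of 3 or more expected UMIs. Some of them point the other way in a sparser bin. Arl4c is lowest at 0.503 with one of the narrowest intervals, and Prim2 is highest at 1.73 with a wide one.

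Few other genes of the Wnt pathway could be read. Of 137 genes on 6 lists (ligands, Frizzleds, co-receptors, secretion and antagonist genes, cytoplasmic and nuclear components, known targets), 9 have a row, the 4 followed genes among them, and no co-receptor and no secretion or antagonist gene was analysed. The number with enough UMIs was 4, and 0 of those 4 passed the fold, against 3.72% of all genes compared. Creb1, a transcription factor that recruits the β-catenin co-activator CBP, stood at 1.11 (0.88 to 1.40). Cul3, the scaffold of ubiquitin ligases that act on Dishevelled, stood at 1.02 (0.87 to 1.19), and Usp37, a deubiquitinase, at 0.837 (0.54 to 1.30). Fn1, the fibronectin gene, known in Xenopus as a β-catenin target, stood at 1.13 (0.91 to 1.41). Sox17, known to restrain β-catenin, was too sparse, with 9 UMIs with Fzd5 and 25 without.

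Replication and centromere genes gave 1 gene of 4 higher and 0 lower, where 1.86% of all genes compared were past the fold on each side, with a median ratio of 1.07 against 1.02 for all genes compared. Besides Prim2, Mcm3 of the replicative helicase stood at 1.06 (0.83 to 1.34) and Hjurp, a centromere histone chaperone, at 1.08 (0.83 to 1.40), while Orc2 lay below 1. Sgol2, which protects centromere cohesion, was under the minimum of expected UMIs, with 26 UMIs with Fzd5 and 27 without, a ratio of 2.14 (1.25 to 3.63). At 2 or more Fzd5 UMIs its ratio was 3.50 (1.86 to 6.57), against 1.30 (0.64 to 2.63) at 1 UMI, with overlapping intervals. In the 43 barcodes with a Sgol2 UMI, 44.2% held Fzd5, and its depth-binned level was 1.54 times that of the rest (1.07 to 2.21). These barcodes were deeper, at a median of 460 UMIs against 282. Of all barcodes with 400 UMIs or more, 35.4% held Fzd5. Bard1, of homologous recombination repair, was also under the minimum, with 18 UMIs with Fzd5 and 33 without. Its ratio was 1.42 (0.79 to 2.56), an interval that includes 1.

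The Myc target list of nucleolar and chaperonin genes had 0 of 5 genes past the fold, against 3.72% of all genes compared. All 5 ratios lay slightly above 1, as did those of 121 of the 215 genes, with a median of 1.08 against 1.02 overall. Hspd1, the mitochondrial chaperonin, stood at 1.10 (1.03 to 1.18) and Nop58, a nucleolar RNP protein, at 1.12, while Ncl, nucleolin, stood at 1.02.

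Of 5 marker lists of other cell types, the summed UMIs of the endocrine, tuft and immune lists were lower with Fzd5. In each of those sums most UMIs with Fzd5 came from 1 gene, whose own interval covered 1. The intervals of the intestinal and stromal lists also covered 1. Of the intestinal list, 3 of 11 genes were measured and together had 602 UMIs with Fzd5 and 1783 without, a ratio of 0.95 (0.86 to 1.04). Within it Vil1 stood at 1.11 (0.99 to 1.24), Alpi, the intestinal alkaline phosphatase, at 0.779, and Tm4sf20 at 0.555 (0.44 to 0.71). Tm4sf20, a tetraspanin-like membrane protein gene, had 76 UMIs with Fzd5 and 366 without, and its bins were uneven at 0.25, 1.01 and 0.39.

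The endocrine list, with 4 of 12 genes measured, had 26 UMIs (236 CPM) with Fzd5 and 190 UMIs (577 CPM) without, a ratio of 0.50 (0.32 to 0.77). Ptprn gave 24 of the 26 and 89 of the 190 UMIs, a ratio of 0.705 (0.448 to 1.11). It was detected in 2.91% of barcodes with Fzd5 and in 2.88% without. Resp18, Scg2 and Fev, of hormone granules and enteroendocrine or serotonin cells, had 2 UMIs with Fzd5, where 13.3 were expected. They had 101 UMIs, in 11 barcodes, without, and Scg2 and Fev were at 0 with Fzd5. These UMIs were clumped, with 60 of 74 Resp18 UMIs in 3 of its 13 barcodes. The expected number and the list interval treat UMIs as independent, so fewer endocrine barcodes with Fzd5 cannot be read from them. The tuft list, with 3 of 8 measured, had 201 UMIs with Fzd5 and 850 without, a ratio of 0.80 (0.68 to 0.93). Ptpn18 gave 192 of the 201 and 754 of the 850 UMIs. Its own ratio was 0.857 (0.729 to 1.01), an interval that includes 1, with bins of 1.31, 0.84 and 0.79. Inpp5d, a phosphatase gene of tuft and blood cells, had 3 UMIs with Fzd5 and 48 without, and Sgk3 had 6 and 48. Both were under the minimum of expected UMIs, with 9.88 and 12.8 expected. Their ratios were 0.23 (0.067 to 0.80) for Inpp5d and 0.37 (0.15 to 0.91) for Sgk3, intervals that left out 1.

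The immune list, with 6 of 12 measured, had 41 UMIs with Fzd5 and 216 without, a ratio of 0.69 (0.49 to 0.96). Ikzf2 gave 40 of the 41 and 181 of the 216 UMIs. Its own ratio was 0.765 (0.545 to 1.08), an interval that includes 1, with bins of 0.60, 1.08 and 0.46. The T cell and neutrophil genes of the list, Cd28, Ctla4, Icos and Cxcr2, had 0 UMIs with Fzd5, where 4.40 were expected. They had 27 UMIs, in 14 barcodes, without. The expected number treats these UMIs as independent, though 10 of 13 Ctla4 UMIs lay in 3 barcodes. The stromal and endothelial list, with 4 of 11 measured, had 24 UMIs with Fzd5 and 128 without, a ratio of 0.94 (0.60 to 1.46). The part of these cells in the ratios of single genes was not tested.

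Fzd7 was compared in the same way after the values for Fzd5 had been seen. The 40 barcodes with Fzd7 had a median of 267 UMIs and the 1348 without had 286. Of 70 genes with enough UMIs, 6 or 8.57% were past the fold, 4 higher and 2 lower, and the median ratio was 1.07.

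Among those 70 genes Arl4c had the largest ratio, and was higher with Fzd7. It had 85 UMIs, 6924 CPM, in barcodes with Fzd7 and 973 UMIs, 2276 CPM, in barcodes without, a ratio of 2.98 (2.39 to 3.72). It was detected in 57.5% of barcodes with Fzd7 and in 30.9% of those without. The bins were uneven, at 0.38, 2.57 and 5.26 from low to high depth, from 1, 50 and 34 Arl4c UMIs with Fzd7. In the lowest bin 2.61 UMIs were expected. The 85 UMIs came from 23 barcodes, and the interval treats them as independent. Without the 3 barcodes richest in Arl4c the log2 ratio was 1.27. The intervals of the Arl4c ratios around Fzd7 and around Fzd5 lay on opposite sides of 1, in 2 comparisons that share most of their barcodes.

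The other genes higher with Fzd7 were Rdh10, which oxidises retinol, at 1.60 (1.36 to 1.87), Gsta3, a glutathione transferase, at 1.54 (1.36 to 1.75), and Slc9a4, a sodium-proton exchanger known from parietal cells, at 1.51 (1.12 to 2.04). Without the 3 barcodes richest in it the log2 ratio of Gsta3 was 0.38 against 0.63, under the fold, and that of Slc9a4 was 0.55 without the 5% deepest barcodes. Lower with Fzd7 were Ptpn18, a tyrosine phosphatase gene, at 0.52 (0.31 to 0.88), and Spats2l at 0.38 (0.19 to 0.76). Ptpn18 had 14 UMIs in 12 barcodes with Fzd7, and 66 of its 946 UMIs lay in 3 barcodes. Spats2l had 8 UMIs in 8 barcodes with Fzd7, where 20.8 were expected. Hspd1 was also lower at 0.68 (0.54 to 0.84) but did not pass the fold. Around Fzd5, Gsta3 stood at 1.01 with 1 and 1.04 with 2 or more Fzd5 UMIs. Of the marker lists, the tuft genes together had 14 UMIs with Fzd7 and 1037 without, a ratio of 0.47 (0.28 to 0.80). All 14 were Ptpn18 UMIs, so this restates the Ptpn18 ratio, and Inpp5d and Sgk3 were at 0 with Fzd7. The endocrine genes had 0 UMIs with Fzd7 and 216 without, where 5.22 were expected. That number too treats UMIs clumped in few barcodes as independent. The immune list stood at 1.37 (0.72 to 2.59). The part of these cells in the ratios around Fzd7 was not tested.

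The opposite relations of the receptors to Arl4c were also seen when barcodes were grouped by Arl4c, a grouping made after the ratios were known and so no separate evidence of them. Barcodes with 0, 1, 2 to 4 and 5 or more Arl4c UMIs numbered 949, 226, 157 and 56. Fzd5 was at 985, 882, 517 and 283 CPM in these groups. Its depth-binned ratio to barcodes with 0 Arl4c UMIs was 0.91 (0.69 to 1.21) at 1, an interval that includes 1. It was 0.52 (0.35 to 0.78) at 2 to 4 and 0.28 (0.12 to 0.62) at 5 or more, the last from 6 UMIs. Fzd7 was at 59.9, 74.8, 299 and 189 CPM. Its ratio was 1.16 (0.43 to 3.12) at 1 Arl4c UMI. At 2 to 4 it was 5.07 (2.55 to 10.1) and at 5 or more it was 4.15 (1.36 to 12.6), from 15 and 4 UMIs. Median depth was 293, 261.5, 279 and 310.5 UMIs over the 4 groups.

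**Figure D5:**
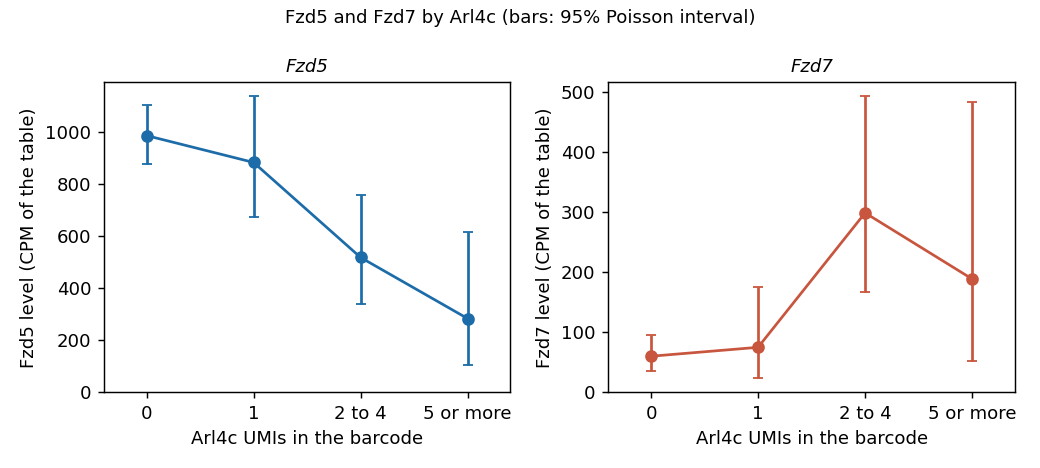
Level of Fzd5 (left) and Fzd7 (right) in CPM of the table by Arl4c UMIs in the barcode, with 95% Poisson intervals as bars. Fzd5 goes down over the 4 groups, from 985 to 283 CPM, with overlapping intervals between neighbouring groups. Fzd7 is at 299 CPM at 2 to 4 Arl4c UMIs against 59.9 CPM at 0.

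Few barcodes held both receptors, and that number was 6. Fzd5 was present in 15.0% of the barcodes with Fzd7 and in 19.96% of those without. The depth-binned ratio of Fzd7 between barcodes with and without Fzd5 was 0.63 (0.27 to 1.52), so a difference in either direction was not detectable at this depth.

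Among groups of barcodes rich in other genes, the level of Fzd5 was 0.450 times that of the rest (0.313 to 0.647) in the 213 barcodes with 2 or more Arl4c UMIs, of which 10.3% held Fzd5. It was 0.412 times (0.132 to 1.28) with Inpp5d, 0.739 times (0.433 to 1.26) with 3 or more Ptpn18 UMIs and 1.03 times (0.589 to 1.78) with 3 or more UMIs of the chemokine gene Ccl20. It was 1.25 times (0.981 to 1.59) with 10 or more Gsta3 UMIs and 1.29 times (0.931 to 1.78) with 2 or more Fn1 UMIs. It was 1.03 times (0.598 to 1.77) with 2 or more Alpi UMIs. Of the 9 groups looked at, those of Sgol2 and Ihh, given above, and of Arl4c had intervals that left out 1, and each restates a ratio already given.

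Genes next to the receptors in the genome were expressed at other levels. Ccnyl1, a cyclin-like gene 4913 bases from Fzd5, had 167 UMIs and a ratio around Fzd5 of 1.15 (0.820 to 1.61). On the same side, 2810408I11Rik, which overlaps Ccnyl1, had 96 UMIs and a ratio of 1.33 (0.865 to 2.05), and on the other side Plekhm3 had 24 UMIs. Next to Fzd7, Cdk15 had 0 UMIs. Besides Wnt10a, the nearest measured gene to Wnt6 was Prkag3, 22670 bases away, with 2 UMIs, and beyond it Cyp27a1, a mitochondrial sterol hydroxylase, had 108 UMIs and a ratio of 0.954. On the far side of Wnt10a the nearest was Gm16582 with 0 UMIs, and Cdk5r2 after it had 3.

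Across the 1388 barcodes, the correlation of depth-adjusted residuals with Fzd5 was highest for 2810459M11Rik (0.133), B3gnt7 (0.111), Hs6st1 (0.105), Acsl3 (0.103) and Tuba4a (0.101). It was lowest for Rpl7 (-0.126), Arl4c (-0.109) and Itm2c (-0.099). All are weak values in sparse counts that share barcodes and depth, and are given as a description.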

How the data were processed

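Counts per gene and barcode were deposited as whole numbers in 1 table. Per the submitters' processing notes, Cell Ranger (no version named), Seurat 2.3.0 and the mouse build mm10 were used. The counts were read as UMIs, as Cell Ranger tables hold. No filter before deposit is named. The last gene row, Asb18, was cut short and left out. Barcodes of 100 or more UMIs were kept, without normalization other than CPM of the table. Coordinates are from GENCODE vM21 on GRCm38, the same assembly as mm10. Levels have exact Poisson intervals, shares have Clopper-Pearson intervals, and ratios are Mantel-Haenszel rate ratios over 3 depth bins (edges 200 and 400 UMIs) with Greenland-Robins intervals, all for counting error only. With 1 pooled sample no test between samples was possible. Named genes are the 4 members, measured list genes, the 10 highest and 10 lowest ratios with 1 direction in every bin of 3 or more expected UMIs, the 2 measured neighbours on each side and the 5 highest correlations of depth-adjusted residuals. Genes named outside this rule, with the comparisons around Fzd7 and by Arl4c, were chosen after their values were seen. The members and lists were chosen with earlier results of these data known. The ratio step was tested on simulated data with Poisson counts at an even rate per gene, apart from set fold changes. That test does not cover genes whose UMIs are clumped in few barcodes, where the intervals can be too narrow. Python 3.11.15, numpy 2.4.6, pandas 2.3.3 and scipy 1.17.1 were used. Alternatives are given in the closing section.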

Additional observations from a re-analysis of the deposited data

Results flagged for a closer look

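The 72 barcodes under 100 UMIs, which entered none of the comparisons, held 6 Fzd5 UMIs, a level of 1190 CPM (437 to 2590), against the 595 CPM that a count of 0, allowing 3 counts, gives over these barcodes. The level lies above that limit and its interval reaches below it. It is listed because these barcodes lie outside the main measurement. Fzd7, Wnt6 and Wnt10a had 0 UMIs there.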

How the results depend on the processing

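No paired analysis was possible because the barcodes carry no sample or replicate number. With Rpl7, Rpl31, Rpl37a and Ptma taken out of the totals, levels were 1749 CPM for Fzd5, 190 for Fzd7 and 58.7 for Wnt10a. Without the 3 barcodes richest in each gene, Wnt10a was at 2.28 CPM and Wnt6 at 0, and Wnt6 was also at 0 in barcodes of 200 or more UMIs. Thinning to 100 UMIs gave shares with Fzd5 of 7.13% at 200 to 400 UMIs and 10.5% at 400 or more. The 4 genes higher with Fzd5 became 1 (a gene other than those 4, of 64 genes compared) after thinning, 14 with a minimum of 5 expected UMIs and 33 with none. The 4 lower became 11 without depth bins, 2 after thinning, 19 with a minimum of 5, 120 with none and 9 for barcodes with 2 or more Fzd5 UMIs. At 2 or more Fzd5 UMIs, 5 genes were higher and 0 of them were among the main 4. With a minimum of 5, 1 of 6 genes of the Wnt lists, Fzd7 at 0.63 (0.27 to 1.52), passed the fold against 0, where 12.2% of 271 genes did. Around Fzd7, 4 genes were lower without the 4 abundant genes in the totals, against 2. Of 207 ratios around Fzd5 recomputed for 23 genes, 200 kept their sign and 187 lay within the counting interval. Sgpp2, Gm8420, Ptprn, Lancl1 and Mcm3 changed sign under at least 1 alternative. The log2 ratio of Arl4c was -0.99, against -1.30 without its 3 richest barcodes and -1.64 for 2 or more Fzd5 UMIs. Depth, at a median of 286 UMIs, leaves most genes too sparse to compare, and the spread between animals is unknown.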
